A study of Homo sapiens with 172 samples.

Results

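Sharp borders of lamina-contacting domains were examined in single KBM7 cells, a human leukaemia line with an almost haploid genome. A sharp border was a point between adjacent 100 kb bins where the mean contact frequency changed from under 10% of cells over 5 bins (0.5 Mb) on its low side to at least 50% over the 5 bins on its high side. Where adjacent points met both limits, the one with the largest difference was kept. This rule found 191 borders among 23879 stretches of 10 consecutive covered bins (0.800%). Both limits were met by 247 stretches (1.03%), of which 135 stood alone and the others formed 56 runs of 2. The borders covered 1857 distinct bins, 7.45% of the 24930 covered bins on the chromosomes used, and 53 bins belonged to more than 1 border. Chromosomes 8, X and Y were outside the rule. Applied to X alone, it gave 18 borders of 1412 stretches (1.27%), which no result here uses. The borders were chosen by the contact frequencies of all cells, so the frequencies of the 10 bins are given as a description with no test.

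All 172 labelled samples belonged to 1 group: haploid (1N) KBM7 cells of clone 5-5 that carried a fusion of Dam methyltransferase to LaminB1. Shield1, a small molecule that keeps the fusion from being degraded, was given at 0.5 nM for 15 h before harvest to induce methylation, and single cells were sorted from the smallest 2% that were positive for both Fucci cell cycle reporters. DpnI, which cuts methylated GATC, released the fragments that were amplified and sequenced. The 168 columns with values came from 84 cells, each with a pair of columns. There was no control group or second condition, and the cells came from 1 clone, so the spread between cells is that of this clone under this induction.

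The nuclear lamina is a protein meshwork under the inner nuclear membrane, and LaminB1 is one of its permanent components. Lamina-associated domains are long stretches of mostly silent, gene-poor chromatin that touch it. In bulk maps many of them end abruptly, and binding sites of the insulator protein CTCF, CpG islands and promoters pointing away from the domain are known to be frequent near those ends. Single-cell DamID records, for each cell, which parts of the genome were methylated by the fusion at the lamina during the induction.

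A cell was counted as in contact with a bin when its ratio of observed over expected reads was at least 1, and the contact frequency of a bin was the percent of the 84 cells in contact. The number of reads per cell, taken from its deeper column, ran from 7134 to 418937 with a median of 63700. Depth therefore differed widely, and 35 cells had at least 100000 reads. Counting over 84 cells also limits each frequency, and a bin at 0 of 84 cells allows a true frequency of up to 3.57% when 3 cells are taken as the floor (exact 95% upper bound 4.30%). Some cells stood apart from the others. Reads were spread more evenly over both sides of the borders in cell 48 than in any other cell, with 1.38 times as many on high as on low sides. Cell 54, at 14065 reads, had the next lowest ratio, 2.14. Cell 56, at 11412 reads, is left out together with cells 48 and 54 below, but its ratio of 6.28 did not stand apart. Lower ratios occurred in cells that were kept, among them cells 6, 72 and 17 (3.09, 3.68 and 3.93). Cells 63, 69 and 79 had some chromosomes nearly without reads. Without cells 48, 54 and 56 the rule gave 214 borders, and without cells 63, 69 and 79 it gave 196.

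The border with the largest step lay on chromosome 3 at position 193300000 (hg19, the last base of the bin on its left). Its high side was to the left. Going from the high side to the low side, its 10 bins were in contact in 68, 62, 67, 67 and 51 cells and then in 2, 2, 4, 1 and 4 cells of 84. The last bin of the high side was thus in contact in 60.7% of cells (exact 95% binomial interval 49.5 to 71.2%, counting error only). The next bin was in contact in 2.38% (0.290 to 8.34%). In the mean over 5 bins the frequency fell from 75.0% to 3.10%, a step of 71.9 percentage points. The high side had more bins in contact than the low side in 80 cells, an equal number in 3 and fewer in 1. The mean ratio over the high side ran from 0.130 to 21.0 over cells with a median of 2.41, and over the low side from 0 to 1.00 with a median of 0.0585. In each of the 84 cells the ratio of the high side exceeded that of the low side, although the ranges over cells overlapped. This border was picked for its step in these same cells, so its values and intervals carry that choice.

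The next largest step, 64.3 points, lay at position 107500000 of the joined chromosome 9:22, the product of the Philadelphia translocation that KBM7 carries and that the files list under joined coordinates. There 52 cells were in contact with the last high-side bin and 1 cell with the first low-side bin. It was followed by a border on chromosome 10 at 111600000 (63.6 points), a second one on chromosome 3 at 172500000 (63.1) and another on 9:22 at 19000000 (62.4). On chromosome 6 the borders at 57200000, 8200000 and 129800000 had steps of 62.1, 61.4 and 60.7 points. The border on chromosome 4 at 104100000 reached 61.4 points, and its low side held 3, 0, 3, 1 and 3 cells in contact over its 5 bins, the bin next to the border last. On chromosome 2, at 220600000, the step was 60.7 points. These 10 borders had low sides between 2.38 and 8.33% and high sides between 63.8 and 75.0%.

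**Figure D1:**
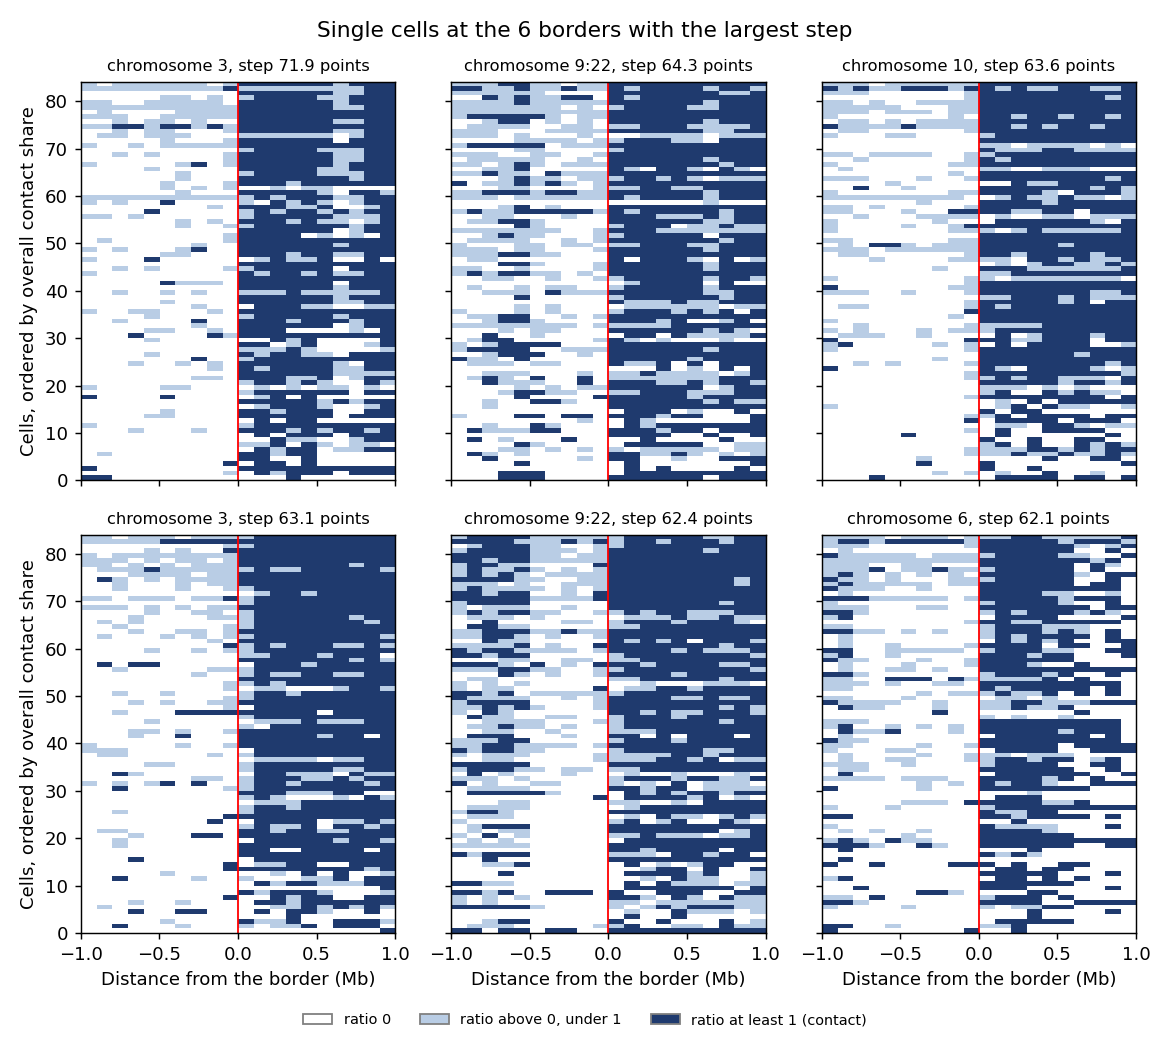
Contact in each of the 84 cells (1 line per cell, ordered from low to high overall contact share) over 1 Mb on each side of the 6 borders with the largest step; dark squares mark a ratio of at least 1, light ones a ratio above 0 and under 1, and the red line marks the border with the high side drawn to the right. At each border 55 to 70 cells had contact at 3 or more of 5 high-side bins and at most 1 of 5 low-side bins. Cells with few contacts in all show gaps on the high side as well.

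At the other end, the smallest steps that met the rule were 40.7 points on 9:22 at 900000 and on chromosome 18 at 3800000, 41.0 points on chromosome 16 at 53000000, 41.4 points on chromosome 7 at 92800000 and 42.1 points on chromosome 2 at 105100000. Points just outside the rule had similar values. On chromosomes 1, 3, 12 and 18, at 234200000, 178000000, 16300000 and 29700000, the low side was at exactly 10% and the high side at 50.2, 51.0, 53.1 and 57.9%. A further point, on chromosome 1 at 108200000, had 10.2% against 53.8%.

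Over all 191 borders the step over 5 bins was 50.6 ± 5.58 points (SD, n = 191 borders), with a lowest value of 40.7, a median of 49.8 and a highest of 71.9. Low sides averaged 6.79 ± 2.01% (2.14 to 9.76%) and high sides 57.4 ± 4.94% (50.0 to 75.0%). High sides thus sat close to the limit of the rule, and only 5 of 955 high-side bins were in contact in 80% of cells or more. Of the 955 low-side bins, 52 were in contact in none of the 84 cells. The high side lay at higher coordinates for 95 borders and at lower coordinates for 96.

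Most of the change took place between the 2 bins that touch the border. These differed by 30.7 ± 13.0 points (SD, n = 191), which was 60.7% of the step over 5 bins. The rule asked for low and high bins side by side and used these frequencies, so this concentration follows in part from it. The bins one further out on each side differed by 51.2 ± 11.0 points, about the whole step. Mean frequency along the low side, from the far bin to the near one, was 5.67, 4.7, 4.5, 5.3 and 13.7%. Along the high side, from the near bin outward, it was 44.4, 56.5, 61.2, 62.5 and 62.3%. The first high-side bin was the lowest of its 5 at 146 borders, and the last low-side bin was the highest of its 5 at 127.

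The borders differed in how much of the step fell on a single pair of bins. The largest changes between adjacent bins were 63.1 points on chromosome 5 at 40900000, 60.7 points on chromosome 11 at 48200000 and on 9:22 at 107500000, 59.5 points on chromosome 4 at 183700000, and 58.3 points on chromosome 5 at 126900000 and, tied with it, on chromosome 3 at 193300000. At chromosome 5, 40900000, contact went from 7.14% of cells in one bin to 70.2% in the next. Only 13 borders had a change of at least 50 points between adjacent bins, 11 had one of under 10 points, and at 5 the first high-side bin was in contact in fewer cells than the last low-side bin (down to -7.14 points). Of these 6 borders, those at 9:22, 107500000 and chromosome 3, 193300000 were also among the 10 largest steps over 5 bins.

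**Figure D2:**
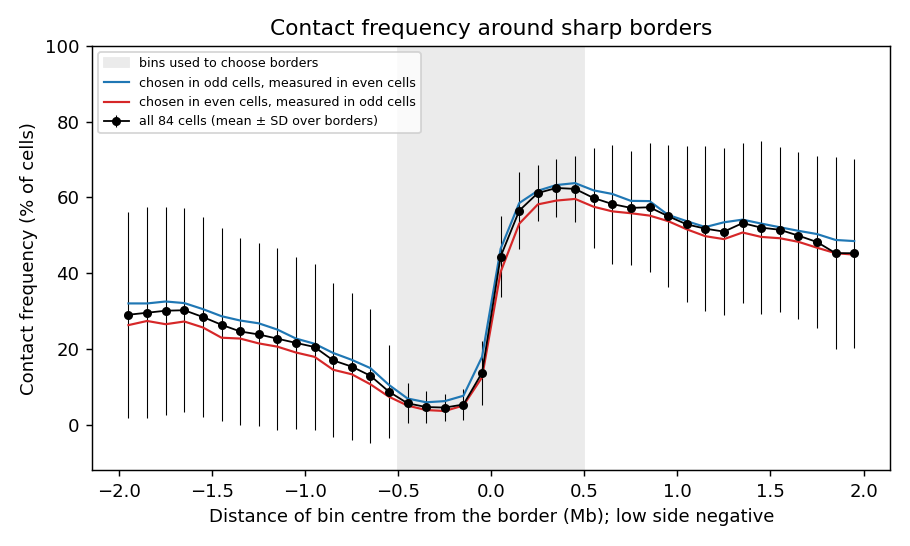
Mean contact frequency (% of cells) against the distance of the bin centre from the border, low side negative, for the 191 borders in all 84 cells (points, SD over borders) and for borders chosen in odd-numbered or even-numbered cells and measured in the other ones (lines); the shaded 0.5 Mb on each side was used to choose the borders. Frequency rises from 13.7% in the last low-side bin to 44.4% in the first high-side bin, and both lines from the other cells follow the same course.

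Outside the bins that the rule used, the contrast became smaller on both sides. From 6 to 20 bins away (0.6 to 2 Mb) the high side averaged 52.5 ± 14.6% (SD, n = 191, range 9.21 to 75.3%) and the low side 22.5 ± 17.8% (1.51 to 68.5%). The mean over all covered bins was 27.2%. The mean over this range was still at least 50% on the high side at 123 borders and still under 10% on the low side at 72, and both held at 49. At 22 borders the order was turned, with more contact beyond the low side than beyond the high side. The low side rose from 5.67% at 5 bins to 8.73, 20.5 and 29.0% at 6, 10 and 20 bins, and the high side fell from 62.3% at 5 bins to 59.8, 55.1 and 45.3% at the same distances. Part of the rise just past bin 5 follows from the rule, which placed a limit on the mean of bins 1 to 5 and none on those after.

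The same measure was then taken in cells that had not been used to choose the borders. The 42 odd-numbered cells alone gave 188 borders (0.787% of stretches) with a step of 50.6 points, and at those positions the 42 even-numbered cells had a step of 49.8 ± 7.80 points (SD, n = 188, range 29.0 to 76.2). The even-numbered cells gave 182 borders (0.762%) with a step of 52.0 points, and the odd-numbered cells had 48.0 ± 7.22 points there (n = 182, 31.0 to 67.6). Both limits were met again at the identical position by 102 of 188 borders, where 1.05% of all stretches met them in the even-numbered cells. In the other direction they were met by 115 of 182, where 1.02% of all stretches met them in the odd-numbered cells. Within 1 bin, 127 borders were shared, 127 of 188 and 127 of 182. Per cell, the step at borders chosen without that cell was 48.9 ± 16.2 points (SD, n = 84), with a lowest value of 8.40, a median of 49.6 and a highest of 87.5, and it was above 0 in 84 of 84 cells. The cells share a clone, an induction and an expected profile, so this repeats the measurement in other cells of the same culture and no p-value was made from it.

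A border was called formed in a cell when at least 3 of its 5 high-side bins and at most 1 of its 5 low-side bins were in contact. By this count a cell formed 54.3 ± 19.5% of the 191 borders (SD, n = 84), from 9.95% to 96.3% with a median of 55.2%. The rule had used the same bins and cells, so the level of these shares follows in part from it. Cells 51, 52 and 75 formed the most, 96.3, 94.2 and 90.6%, and cells 54, 57 and 19 the fewest, 9.95, 17.8 and 18.3%. Cell 48, whose high sides held only 1.38 times the reads of its low sides, formed 18.8%. In other cells left out above, cells 56, 63, 69 and 79, the share was 34.6, 56.0, 47.6 and 31.9%.

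The share of borders formed moved with depth and with the number of contacts in a cell. It was 64.2 ± 15.8% in the 35 cells of at least 100000 reads and 47.3 ± 18.9% in the 49 shallower cells. Spearman's rho over the 84 cells was 0.69 with the number of reads and 0.84 with the share of all covered bins in contact. Cells 51, 52 and 75 had 399641, 343589 and 292378 reads, against 14065, 17503 and 7134 in cells 54, 57 and 19. The part of depth in the difference between cells was not tested.

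Seen from the borders, the counts of cells at each one follow in part from the rule, which used the same bins and cells. The number of cells that formed a border ran from 32 to 70 of 84 with a median of 45. The high side had more bins in contact than the low side in 56 to 80 cells (median 68), an equal number in 3 to 23 (median 14) and fewer in 0 to 5 (median 2). Compared by the mean ratio, without the cutoff of 1, the high side was above the low side in 73 to 84 cells (median 79). The median ratio over cells ran from 1.07 to 2.41 on the high sides and from 0 to 0.274 on the low sides of the 191 borders, so these ranges did not overlap, as the choice of borders makes likely.

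Reads behind single values were few. The median was 22 reads per 5 high-side bins and 2 reads per 5 low-side bins in a cell's deeper column. No read at all was seen on 30.6% of the low sides and 3.14% of the high sides, over all combinations of a cell and a border. High sides held 7.81 times the reads of low sides over all cells, and 1.38 to 27.6 times in single cells, with a median of 9.69. The lowest of these was cell 48 and the highest cell 63. In the shallowest cell, cell 19, 88 of the 191 borders had no read on either side in the deeper column. A low side without contact in such a cell cannot be told from one that was not sampled.

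Where in single cells the change took place was measured by the split that left the fewest bins on the wrong side, searched within the 10 bins. Of 8719 combinations in which a border was formed, 7458 had a single best split. It lay exactly at the border in 50.5% of these and 1 or more bins away in the others. The condition that a border be formed in the cell allows a split at most 1 bin into the low side and up to 3 bins into the high side, so closeness to the border and the direction of the offsets are set in part by it and nothing is read from them. In 67.6% of the same 7458 combinations no bin was on the wrong side of the split, so the cell showed contact on all bins on one side of it and none on the other. This share was 79.7% in the cells of at least 100000 reads and 54.7% in the others, while the share split exactly at the border was 53.0% and 47.9%. The other 1261 formed combinations had tied best splits, each with at least 1 bin on the wrong side. Over all 8719 the share without a wrong bin would therefore be lower. The condition that a border be formed also limits how many bins can be wrong, so the share follows in part from it. Combinations in which the border was not formed are outside it, and cells formed 54.3% of borders on average. Ties made up 433 of 4290 formed combinations in the cells of at least 100000 reads and 828 of 4429 in the others.

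Sharp borders were 1 form of passage between low and high stretches among others. Going along the chromosomes from any 5 bins of under 10% to the next 5 bins of at least 50%, or the reverse, there were 441 such passages. In 191 (43.3%) the low and high bins were adjacent, as the rule asks. In 129 (29.3%) they were separated by 1 to 5 bins, in 71 (16.1%) by 6 to 10, in 39 (8.84%) by 11 to 20 and in 11 (2.49%) by more, up to 33 bins. The best split was then searched within 20 bins centred on the passage, in cells with at least 3 of the last 5 bins in contact at the high end of this window and at most 1 of 5 at the low end. Its position varied over cells with an SD of 2.07 ± 0.375 bins at the sharp borders (mean and SD over 171 borders whose window could be used). It was 2.56 ± 0.516 bins at 124 passages of 1 to 5 bins and 3.63 ± 0.666 bins at 71 of 6 to 10. The mean number of bins on the wrong side of that split was 1.46, 1.67 and 2.29. The grouping by width used the frequencies of the same cells, and bins of intermediate frequency make the split vary, so this order is a description and follows in part from the grouping.

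Across all combinations of a cell and a border, the number of high-side bins in contact was spread over its whole range. None of 5 was in contact in 15.4%, 1 in 12.7%, 2 in 12.2%, 3 in 14.9%, 4 in 18.7% and all 5 in 26.1%. High sides were thus most often fully in contact, and least often with 2 bins. All or none of the 5 were in contact in 41.5 ± 12.9% of borders per cell (SD, n = 84). In 1364 other stretches of 5 bins with a mean frequency of 60.7%, taken away from the borders, this was 43.7 ± 14.6%, and the same 6 shares were 13.3, 11.9, 12.2, 13.9, 18.3 and 30.4%. Within cells the high sides differed from the other stretches by -2.26 ± 6.87 points (SD, n = 84) and were lower in 55 of 84 cells. The other stretches also had a slightly higher mean frequency, whose part in this was not tested. On the low sides no bin was in contact in 75.1%, 1 bin in 18.4%, 2 in 4.76%, 3 in 1.26%, 4 in 0.393% and all 5 in 0.143%.

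Contact on the low side differed with the state of the high side in the same cell. Where no high-side bin was in contact, 2.14% of low-side bins were, and this rose through 4.27, 5.21, 6.27 and 7.29% to 11.5% where all 5 were. The bin next to the border changed most. It was in contact in 2.67% of cases with 0 of 5 and in 27.1% with 5 of 5. Bin 2 of the low side went from 2.02 to 8.40% and bin 5 from 2.22 to 8.75%. On the far side of the high stretch, bin 6 went from 14.6 to 89.8%.

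Border by border, the difference between cells with 5 of 5 and cells with 0 of 5 was 25.8 ± 20.6 points in the nearest low-side bin (SD, n = 186 borders with both kinds of cells) and above 0 at 168. In bins 2 to 5 it was 5.87 ± 6.29 points and above 0 at 155. These differences are not corrected for the contact share of the cells, which was higher in cells with more complete high sides, and its part in them was not tested. A correlation over the 84 cells was also taken, with a linear fit on contact share removed. High-side bin 3 had a mean Pearson r of 0.34 and 0.43 with bins 1 and 2, and 0.43 and 0.39 with bins 4 and 5. With the last low-side bin r was 0.14, and with the 4 bins beyond it 0.05, 0.04, 0.03 and 0.04, from near to far. Those 4 values were near 0, with an SD over borders of 0.107 to 0.129. A bin in contact in few cells can reach only a small r with one in contact in most cells. The fall of r across the border therefore follows in part from the rule.

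**Figure D3:**
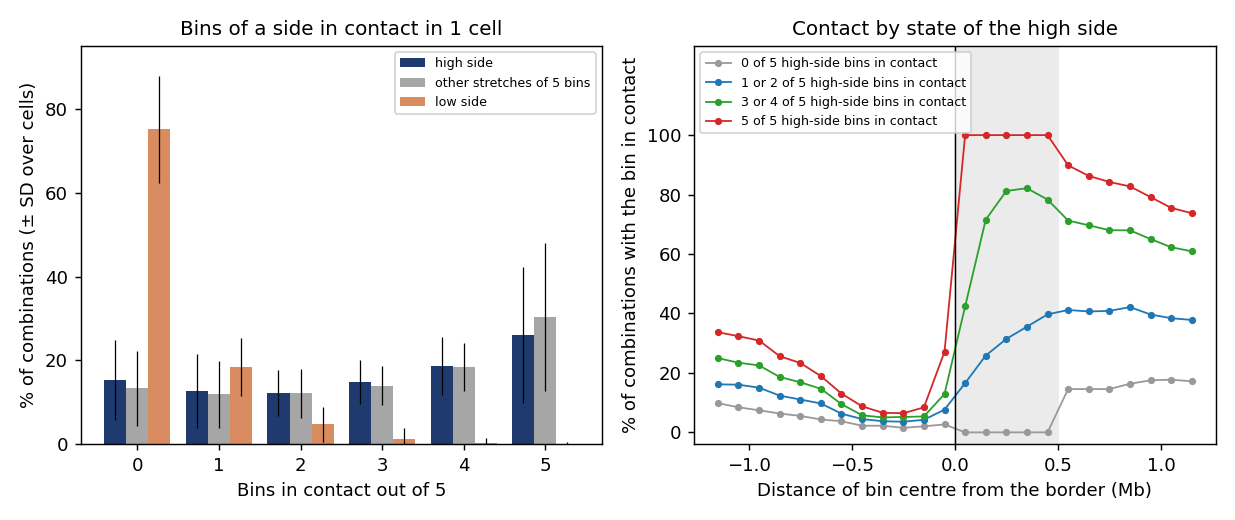
Left, percent of combinations of a cell and a border (bars, SD over 84 cells) with 0 to 5 bins in contact on the high side, on the low side and in other 5-bin stretches of like frequency. Right, percent of combinations in which each bin was in contact, against distance from the border, split by how many high-side bins (shaded, fixed by the split) were in contact; the nearest low-side bin goes from 2.67% to 27.1% and the bins further out on the low side stay below 9% up to 0.5 Mb.

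Within the high sides, contacts of adjacent bins went together over cells. The mean Pearson r was 0.42 ± 0.042 (SD over 18 chromosomes, 764 pairs of bins), against 0.40 ± 0.042 for adjacent pairs of other bins of at least 50%. At distances of 2, 3 and 4 bins it was 0.37, 0.34 and 0.30 on high sides and 0.36, 0.33 and 0.32 elsewhere. The values on high sides and elsewhere differed by less than the spread between chromosomes. All these points share the 84 cells and their depth, so the values are a description.

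Facing borders enclosed stretches that begin and end with little contact. There were 55 such gaps between a high side on the left and one on the right, 45 of them covered throughout, with a median length of 2 Mb (0.5 to 28.6 Mb) and a mean contact frequency of 11.6 ± 8.58% (SD, n = 45). The mean was under 10% in 29 and above that of all covered bins in 3, with a range of 3.57 to 43.6%. Every bin was under 50% in 31 and under 20% in 10. Each gap outside the 31 held a bin of 50% or more between its ends. Of the 45, 14 were at most 1 Mb long and 6 were exactly 5 bins, the shortest the rule allows. Over the 14 short gaps the high sides on both flanks had a mean r of 0.47 ± 0.112 (0.23 to 0.65). High sides of 5 bins at the same separation within uninterrupted stretches, where each bin was at 40% or more, had 0.53 ± 0.069 (SD over chromosomes). For gaps of 11 to 20 bins the values were 0.39 ± 0.057 (n = 9) and 0.45, for 21 to 40 bins 0.30 ± 0.166 (n = 7) and 0.37, and for 41 to 80 bins 0.32 ± 0.069 (n = 4) and 0.28. The mean across gaps was lower in 3 of the 4 length classes, in each case by less than the SD between chromosomes. For gaps of 11 to 20 bins, where the SD between chromosomes was 0.072, the difference exceeded the SD between gaps. In the other classes with a lower mean it did not. High sides on the same chromosome had a mean r of 0.17 (1416 pairs, all distances) and those on different chromosomes 0.016 (16729 pairs).

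The states of both flanks of a short gap were also counted in single cells. Over the 14 gaps and 84 cells (1176 combinations), at least 3 of 5 bins were in contact on both flanks in 49.1%, only on the left flank in 12.7%, only on the right in 14.0% and on neither in 24.2%. In the gap itself, 11.0 ± 4.28% of bins were in contact where both flanks were (SD, n = 14 gaps), 6.04 ± 2.99% where one was and 3.23 ± 1.88% where neither was. Low values in all 3 states follow from the choice of the gaps, whose edges were selected for low contact in the same cells, and only their order was not set by it. Neither the order nor the shares of flank states were corrected for the contact share of the cells, whose part in them was not tested. Shares for flanks that vary independently were not computed. Among the longer gaps, one on chromosome 3 from 169500001 to 172500000 had an r of 0.015 between its flanks, and it is named because its value was seen to be the lowest.

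**Figure D4:**
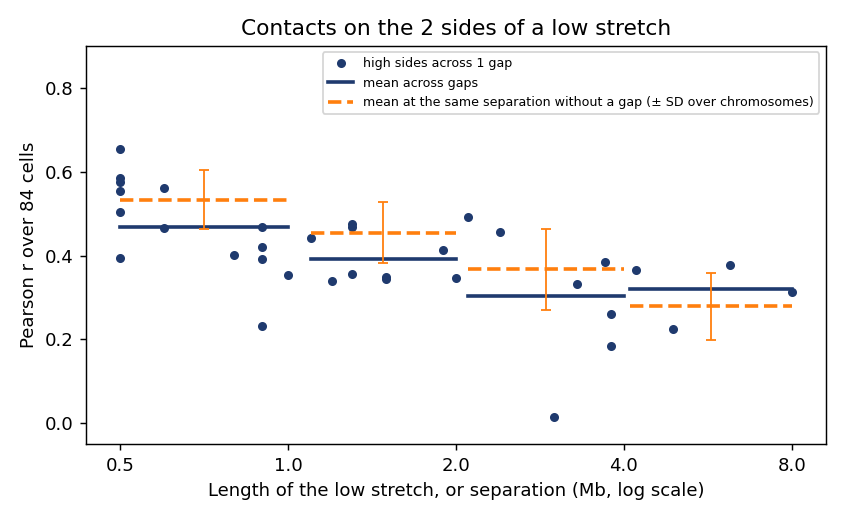
Pearson r over 84 cells between the contacts of the high sides flanking a gap (1 point per gap), against the gap's length in Mb (log scale); solid bars are means of gaps in 4 length classes, and dashed bars are means (SD over chromosomes) for pairs at the same separation inside uninterrupted stretches. Short gaps lie between 0.23 and 0.65, around a mean of 0.47 against 0.53 without a gap.

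The opposite arrangement, a stretch of contact with a sharp border at each end, occurred 55 times, 49 times with full coverage. These domains had a median length of 4.6 Mb (0.5 to 40.4 Mb) and a mean frequency of 52.1 ± 13.2% (SD, n = 49). Contact was not continuous within all of them: every bin was at 10% or more in 25, at 20% or more in 21 and at 40% or more in 5. The shortest were chromosome 11 from 94900001 to 95400000 (0.5 Mb, a single set of 5 bins serving both borders), chromosome 5 from 39600001 to 40400000 (0.8 Mb) and chromosome 11 from 110400001 to 111300000 and from 123600001 to 124500000 (both 0.9 Mb). The longest were chromosome 3 from 108300001 to 148700000 (40.4 Mb), chromosome 4 from 160400001 to 183700000 (23.3 Mb) and chromosome 10 from 91500001 to 111600000 (20.1 Mb). Mean frequency in these 3 was 22.2, 50.1 and 25.3%, so the first and the last lay below the mean over all covered bins (27.2%) and their ends do not bound 1 continuous domain.

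The contacts at both ends of a domain had a higher r over cells in shorter domains than in longer ones. The mean r between the high sides at both ends was 0.62 ± 0.127 in 9 domains of 1.1 to 2 Mb, 0.41 ± 0.093 in 13 of 2.1 to 5 Mb, 0.31 ± 0.151 in 11 of 5.1 to 10 Mb and 0.20 ± 0.092 in 12 of 10.1 to 40.4 Mb. A fall with distance was not particular to domains. Within the uninterrupted stretches above, r was 0.53, 0.45, 0.37 and 0.28 at separations of 5 to 10, 11 to 20, 21 to 40 and 41 to 80 bins. These separations are not the same measure as domain length. Of the 173 pairs of neighbouring borders on a chromosome, the remaining 63 faced the same way, with a passage back between them that did not meet the rule.

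Borders were unevenly distributed over chromosomes. By 100 stretches examined, chromosome 11 had the most (1.30, 16 borders of 1228 stretches), followed by chromosomes 5 (1.28, 22 of 1722) and 4 (1.08, 20 of 1850). Chromosomes 17, 19 and 22:9 had none of 714, 540 and 109 stretches. Those 3 also had the lowest mean contact frequencies, 8.44, 4.89 and 1.53%, against 30.3, 33.4 and 37.8% on chromosomes 11, 5 and 4. On chromosomes 19 and 22:9 no covered bin was at 50% or more, so the rule could give no border there. On chromosome 17 such bins were 5.83% of those covered. Frequency alone did not order the chromosomes. Chromosomes 13 and 18, with mean frequencies of 33.1 and 33.6%, had 0.322 and 0.682 borders per 100 stretches (3 of 932 and 5 of 733).

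**Figure D5:**
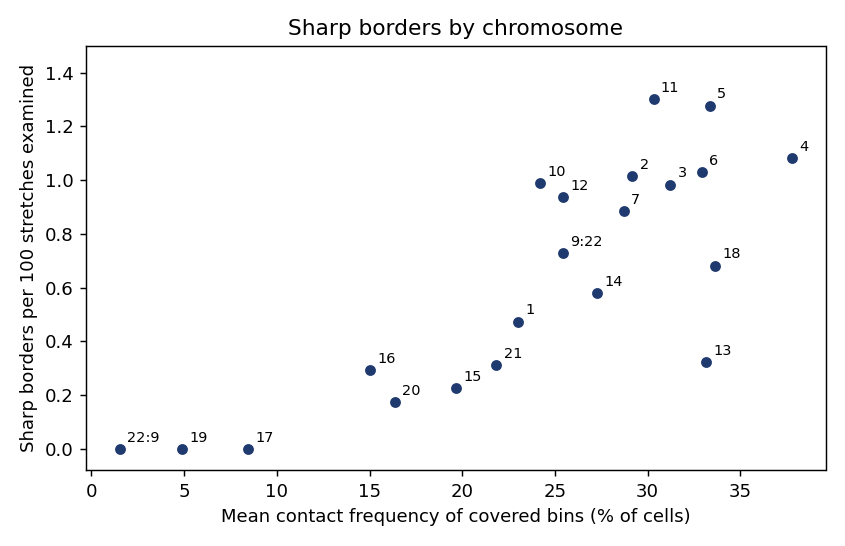
Sharp borders per 100 stretches examined against the mean contact frequency of covered bins (% of cells), 1 point per chromosome; 9:22 and 22:9 are the joined chromosomes. Chromosomes 22:9, 19 and 17 lie at 0, chromosomes 11 and 5 highest at 1.30 and 1.28, and chromosome 13 lies at 0.322 with a frequency of 33.1%. Chromosomes 22:9 and 19 had no covered bin at 50% or more, so no border was possible there.

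Along chromosomes the median distance from a border to the nearest other one was 3.3 Mb, and 34 of 188 borders with another on their chromosome had one within 1 Mb. Within 2 Mb of a chromosome end lay 2 borders (1.05%, against 2.29% of all stretches examined), and within 5 Mb lay 7 (3.66%, against 6.81%). The densest group was on chromosome 5, where 5 borders fell between 39600000 and 43800000. From left to right these enclosed a domain of 0.8 Mb, a gap of 0.5 Mb, a domain of 2 Mb and a gap of 0.9 Mb. The flanks of the first gap had an r of 0.50 and both were in contact in 42 cells, only the left in 7, only the right in 12 and neither in 23. The ends of the 0.8 Mb domain, which share bins, had an r of 0.80.

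The expected reads per bin, which do not enter the choice except as the denominator of the ratio, were compared between both sides. They averaged 324.8 ± 32.8 reads on high sides and 313.6 ± 36.7 on low sides (SD, n = 191). Averaged per chromosome, the high side exceeded the low side by 17.6 ± 21.3 reads (SD, n = 18) and was higher on 17 of the 18. By an exact sign test over chromosomes (two-sided) this had p = 0.000145. The expectation is part of the ratio by which borders were chosen, so the test is not independent of that choice. Chromosomes 15, 20 and 21, with 1 border each, count as much in it as chromosome 2 with 23. Single borders showed the difference less evenly, with the high side higher at 110 of 191 and a mean difference of 11.2 reads. With 3 bins on each side the difference was 11.5 reads (p = 0.0309, same exact test). With 10 bins it was 9.65 reads and the test no longer passed 0.05 (p = 0.238). Away from the borders, bins under 10% had 305.4 expected reads and bins of at least 50% had 314.3. A higher expectation lowers the ratio of a bin at equal reads. The part of this difference in the steps was not tested.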

How the data were processed

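Single-cell DamID with Dam-LaminB1 was measured in 172 samples of 1 group. The deposited values are ratios of observed over expected reads per 100 kb bin, per the file headers; cutadapt and Bowtie2 2.1.0 with hg19 are named in the submitters' processing notes. The making of the expectation and the handling of duplicate reads are not given in the sources used. Samples 81, 82, 167 and 168 are not analysed here. Columns 86 apart matched best in 168 of 168 columns and were averaged as 1 cell, giving 84 cells. Of 30376 bins, 3792 had no value and 170 were 0 in all columns, which left 26414.

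Within a bin, ratios were whole multiples of a common step, so reads were recovered from the ratios: 100% of values above 0 were whole within 0.02, and expected reads were 1 to 592 per bin (median 316). Amplified reads are not independent molecules, so intervals cover counting error only. Stretches of 10 bins needed values in all of them, and limits were compared on whole numbers of cells. Correlations were Pearson's, taken on residuals from a regression on the contact share of the cells. No test was made between cells; a sign test over chromosomes was run for expected reads. Python 3.11.15, numpy 2.4.6, pandas 2.3.3, scipy 1.17.1 and matplotlib 3.10.9 were used, and the scripts were tested on simulated data.

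The members and lists were chosen with earlier results of these data known. Named borders were the 10 largest and 5 smallest steps, the 5 nearest points outside the limits, the 5 largest adjacent steps, the 3 shortest and 3 longest domains, and the 3 chromosomes with most and with fewest borders. Of the fewest, the 3 named have none, and borders and domains tied with the last of a list are named too. Named cells were the 3 highest and 3 lowest by borders formed. Other contact cutoffs, window sizes, limits, scalings, columns, subsets of cells and leaving out chromosome 15 were tried. Genes and sequence at the borders were not used here, since no annotation or genome of hg19 was at hand.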

Additional observations from a re-analysis of the deposited data

Results flagged for a closer look

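Chromosome X was outside the rule and outside every comparison above. By the same rule it held 18 borders in 1412 stretches (1.27%, against 0.800% on the chromosomes used), and it is given here because the comparisons did not use these data. Among the chromosomes used, 11 and 5 had 1.30 and 1.28 borders per 100 stretches, so X lay within their range. The largest step on X, 62.1 points, lay at position 12800000, where frequency went from 66.0% on the left to 3.81% on the right. The step over 5 bins on X was 50.8 ± 5.35 points (SD, n = 18, range 41.7 to 62.1), and a cell formed 55.6 ± 23.8% of the X borders (SD, n = 84).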

How the results depend on the processing

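Of 135 values under alternative settings, 125 kept their direction and either their side of the test's threshold, a count within 1.5 times, or a value within 1 SD. The number of borders fell from 191 to 115 with a contact cutoff of 1.5 (79 of them among the 191) and to 15 with a cutoff of 2 (6 shared). It was 381 with limits of 20% and 50% (185 shared), 54 with a high limit of 60% and 61 with a low limit of 5%. With a cutoff of 2, cells formed 33.5% of borders, and the high side 6 to 20 bins away was at 33.3%. Within 1 SD but lower by over 1.5 times, the low side there was at 12.6% and the step between adjacent bins at 18.7 points. The r of adjacent high-side bins was 0.34 in cells 1 to 29 and 0.53 in cells of at least 100000 reads. The difference in expected reads was 11.5 with 3 bins and 9.65 with 10 bins on each side (p = 0.238, exact sign test). The cause of these changes was not tested. A cutoff of 0.5 gave 137 borders, of which 72 were shared, and cells of at least 100000 reads gave 285, of which 186 were shared, a setting that changes depth, number of cells and contact share together. The step in cells not used for the choice ran from 33.1 to 57.7 points over its 14 alternatives. With a median of 2 reads per low side in a cell, absence of contact in a single cell is limited by depth. No paired analysis was possible because the samples form 1 group with nothing to pair against.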
